A study of Homo sapiens with 10 samples.

Results

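The binding of ZEB1 was compared between human breast cancer cells exposed to 300 nM eribulin for 72 h and untreated control cells. All 52981 consensus sites of the series were used, of which 46436 had enough counts to be tested. Each condition had 2 of the 8 ZEB1 CUT&RUN libraries of the series, in which an antibody directs a nuclease to bound DNA and the released fragments are sequenced. The labels name the treated cells MDA_ERI and the untreated cells MDA_Parental, describe both as Er-/Pr-/Her2-, and give no time for the control, so that drug exposure, time in culture and any difference between these lines cannot be told apart. Cells of both groups grew in DMEM with 10% fetal bovine serum. The labels do not say whether the libraries came from separate cultures, and they also mention Tn5, which is no step of CUT&RUN. ZEB1 binding does not report expression, so the receptor label could not be checked against RNA. ESR1, PGR and ERBB2, the receptor genes of that label, were the nearest gene of no tested site within 100 kb.

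ZEB1 is a zinc finger transcription factor that represses epithelial genes, CDH1 among them, and promotes the epithelial-mesenchymal transition (EMT). Its zinc finger clusters recognise the core CACCT, most often within the E-box CACCTG, and it can also be recruited to DNA through partners such as AP-1 and the YAP and TEAD factors. Eribulin blocks microtubule growth and thereby mitosis. The title of the series places the work in the study of a drug-induced return of mesenchymal cells to an epithelial state.

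The promoters below show the letters under sites that were at least 2-fold lower or higher at 72 h. Each is a RefSeq window of GRCh38.p14, 250 bases before to 50 after an annotated start, and capitals mark the core CACCT or its complement AGGTG. FOS (chr14:75278578-75278877, + strand), DUSP1 (chr5:172771146-172771445, - strand) and BHLHE40 (chr3:4979187-4979486, + strand) lay under sites that fell. TJP1 (chr15:29821430-29821729, - strand), OCLN (chr5:69492540-69492839, + strand), PATJ (chr1:61742230-61742529, + strand) and DSG2 (chr18:31497927-31498226, + strand) are epithelial junction and polarity genes under sites that rose, and the last 3 were chosen after their values were seen.
FOS: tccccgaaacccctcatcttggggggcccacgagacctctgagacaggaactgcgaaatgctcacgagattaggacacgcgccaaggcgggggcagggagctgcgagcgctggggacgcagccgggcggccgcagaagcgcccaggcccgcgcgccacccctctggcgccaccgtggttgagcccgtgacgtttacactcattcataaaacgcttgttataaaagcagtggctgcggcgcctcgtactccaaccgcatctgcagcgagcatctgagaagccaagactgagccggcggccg
DUSP1: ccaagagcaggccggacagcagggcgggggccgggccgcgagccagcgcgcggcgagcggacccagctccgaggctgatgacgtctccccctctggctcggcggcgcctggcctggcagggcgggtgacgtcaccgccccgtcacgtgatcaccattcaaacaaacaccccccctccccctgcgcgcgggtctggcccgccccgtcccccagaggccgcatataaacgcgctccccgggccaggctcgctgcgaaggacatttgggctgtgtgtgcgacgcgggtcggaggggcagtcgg
BHLHE40: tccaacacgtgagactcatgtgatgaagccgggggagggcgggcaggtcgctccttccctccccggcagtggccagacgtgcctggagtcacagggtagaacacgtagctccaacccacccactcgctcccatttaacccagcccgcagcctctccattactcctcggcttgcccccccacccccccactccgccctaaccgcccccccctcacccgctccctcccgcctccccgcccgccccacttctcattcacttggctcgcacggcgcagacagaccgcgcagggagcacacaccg
TJP1: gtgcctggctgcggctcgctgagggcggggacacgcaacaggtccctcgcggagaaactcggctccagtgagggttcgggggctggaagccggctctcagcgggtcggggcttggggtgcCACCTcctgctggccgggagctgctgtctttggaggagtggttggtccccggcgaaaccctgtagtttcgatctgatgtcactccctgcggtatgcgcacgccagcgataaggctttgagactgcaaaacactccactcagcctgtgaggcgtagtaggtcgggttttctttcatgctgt
OCLN: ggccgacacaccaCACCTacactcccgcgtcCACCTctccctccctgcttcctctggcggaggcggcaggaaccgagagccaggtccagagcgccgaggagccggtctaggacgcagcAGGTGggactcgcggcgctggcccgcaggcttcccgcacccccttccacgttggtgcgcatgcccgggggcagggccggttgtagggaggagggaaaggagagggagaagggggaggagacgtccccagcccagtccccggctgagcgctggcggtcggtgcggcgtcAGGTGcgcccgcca
PATJ: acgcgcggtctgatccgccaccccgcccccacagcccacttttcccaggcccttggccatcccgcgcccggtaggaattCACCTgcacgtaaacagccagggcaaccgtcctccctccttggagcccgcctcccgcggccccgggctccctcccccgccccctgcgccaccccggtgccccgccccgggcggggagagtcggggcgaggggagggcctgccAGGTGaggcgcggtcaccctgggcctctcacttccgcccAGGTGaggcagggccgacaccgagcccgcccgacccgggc
DSG2: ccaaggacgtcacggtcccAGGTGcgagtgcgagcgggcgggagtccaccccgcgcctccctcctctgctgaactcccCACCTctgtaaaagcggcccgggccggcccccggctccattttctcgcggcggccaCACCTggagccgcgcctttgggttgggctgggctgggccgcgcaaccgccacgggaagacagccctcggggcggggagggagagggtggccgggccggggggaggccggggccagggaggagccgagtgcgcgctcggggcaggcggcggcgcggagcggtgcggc
The windows of FOS, DUSP1 and BHLHE40 held 0 cores. That of TJP1 held 1 core, 130 bases before the start, and 0 E-boxes. OCLN held 4 cores, of which 2 stood in the E-box CACCTG or its complement CAGGTG, PATJ held 3 cores, all 3 in E-boxes, and DSG2 held 3 cores, 2 of them in E-boxes. The FOS, OCLN, PATJ and DSG2 windows lay wholly under their sites, and the others shared 158 to 220 of their bases with them.

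Counts in consensus sites summed to 1207987 and 1130706 in the 72 h libraries, against 3561455 and 3146228 in the control libraries. Libraries of a condition differed by less than sampling alone gives (chi-square per degree of freedom 0.951 at 72 h and 0.830 in control, where sampling gives about 1). Between the conditions the value was 5.57 to 5.99. Each pair was therefore counted as 1 sample. Levels are in CPM, counts relative to the library size after TMM scaling, fold changes use the pooled pair, and 95% intervals cover counting error only. The adjusted p-values come from the quasi-likelihood test of edgeR with Benjamini-Hochberg adjustment over all tested sites, and they compare these libraries, not the conditions. TMM centres the sites on each other, so "higher" and "lower" are relative to the other sites. A genome-wide background of the peak caller was inferred from the fold enrichments and p-values of the peak lists, and it was 95.2% of control at 72 h. Scaled to it instead, site counts of replicate 1 were 35.6% of control and the median log2 fold change shifted by -1.505. No separate background was available for replicate 2, which took that of its condition in proportion to its total counts. A site with a log2 fold change between 0 and the size of that shift is thus higher relative to other sites and lower with background scaling.

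Far fewer ZEB1 peaks were listed at 72 h than in control. The authors' peak lists, 1 per condition, held 17941 peaks over 4255766 bases at 72 h and 46483 peaks over 13397589 bases in control. Peaks were also weaker, with a median fold enrichment, as the authors give it, of 6.54 at 72 h and 9.12 in control. Of the 72 h peaks, 92.7% overlapped a control peak (exact 95% binomial interval 92.3 to 93.1), whereas 34.7% of control peaks overlapped a 72 h peak (34.3 to 35.1). Between the 17941 strongest peaks of each list, these shares were 68.5% and 66.0%. The strength of the control peak ordered which were listed again: 75.7% of control peaks in the highest quintile of fold enrichment overlapped a 72 h peak, 44.4% in the next, then 26.1% and 15.9%, and 11.4% in the lowest.

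At an adjusted p under 0.05, ZEB1 signal at 72 h was lower at 7916 sites (17.0% of those tested) and higher at 8760 (18.9%). A change of at least 2-fold was also met by 3989 lower (8.59%) and 5706 higher sites (12.3%), which are the called sites below. Both 72 h libraries lay below both control libraries at all 3989 lower sites and above them at 5651 higher ones, which the call itself largely fixes; over all tested sites, 67.8% had libraries that did not overlap. Lower sites were nearly all control peaks (3977, 99.7%), with median levels of 6.13 CPM at 72 h and 16.7 CPM in control. Higher sites were weak in control, with median levels of 13.1 CPM at 72 h and 4.22 CPM in control, and 3184 of them (55.8%) held no control peak. A site enters the consensus through any list, so such a site had to be high in a treated library, and among sites with a control peak 2522 were higher. Relative to the background floor, 34103 sites were lower and 757 higher. With DESeq2 1857 were lower and 3801 higher, so that 32.8% of called sites were lower against 41.1% with TMM. Had cultures varied by a coefficient of 0.2, which was assumed and not measured, 936 lower and 2440 higher sites would be called.

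**Figure D1:**
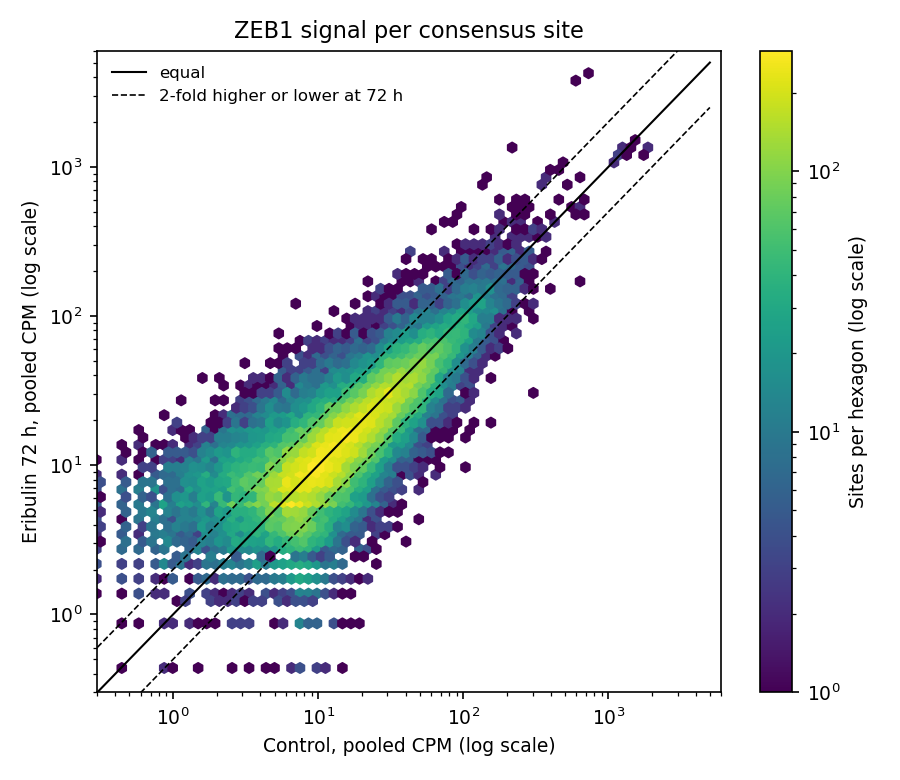
Pooled TMM-scaled CPM at 72 h (vertical) against control (horizontal) for tested sites with counts in both conditions, both axes on a log scale. Hexagons are coloured by the number of sites, the solid line marks equal levels and the dashed lines 2-fold differences; sites with few control counts spread upwards, and 2 sites, at 3831 and 4243 CPM at 72 h, stand far above the diagonal.

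The plot of pooled levels shows that most sites follow the diagonal. The sites with the greatest differences in CPM and in fold are described next.

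Immediate early genes, which cells switch on within minutes of a growth or stress signal, led the losses. FOS encodes a subunit of AP-1. Distances are to the nearest end of a gene, which can be its start or its finish. The 2 FOS sites given here lie beyond the finish, not at the promoter. The strongest of its sites, 1132 bp from FOS (chromosome 14, 75283362 to 75284463), had 32.2 and 31.7 CPM in the 72 h libraries, against 303 and 312 CPM in the control libraries. The log2 fold change was -3.26 (-3.62 to -2.93; edgeR adjusted p = 9.02e-90), at a site that was among the strong ones of control cells. A second site 511 bp from FOS (chromosome 14, 75282741 to 75282901) had 2.54 and 3.62 CPM at 72 h, against 37.4 and 40.3 CPM in control, with log2 -3.66. FOSB, another AP-1 subunit, had 10.2 and 9.96 CPM at 72 h, against 88.4 and 108 CPM in control, at chromosome 19, 45476270 to 45476822 (log2 -3.28, -3.94 to -2.68). Its neighbour at 45475307 to 45475939 had 13.5 and 23.5 CPM at 72 h, against 148 and 149 CPM in control (log2 -3.02). At all 4 of these AP-1 subunit sites the libraries of the conditions were apart, which their choice among the largest folds required.

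EGR1, a zinc finger factor of the same early response, showed the greatest loss in CPM. Its site at chromosome 5, 138469398 to 138471440, 95 bp from an end of the gene, had 174 and 177 CPM at 72 h, against 610 and 590 CPM in control (log2 -1.78, -1.93 to -1.63; edgeR adjusted p = 6.57e-88). The EGR1 promoter site had 99.0 and 104 CPM at 72 h, against 202 and 203 CPM in control, and at log2 -0.99 it passed the test but missed the 2-fold limit. DUSP1, a phosphatase that switches off MAP kinases, had 134 and 102 CPM at 72 h, against 313 and 314 CPM in control, 2028 bp from the gene (chromosome 5, 172765102 to 172766068, log2 -1.40). This site lies beyond the finish of the gene. At the DUSP1 promoter printed above, the levels were 18.6 and 23.5 CPM at 72 h, against 61.2 and 60.01 CPM in control (log2 -1.53, -1.99 to -1.10). The FOS promoter fell too, with 33.0 and 38.0 CPM at 72 h, against 92.6 and 98.4 CPM in control (log2 -1.43). The groups overlapped in none of these pairs, which a call largely fixes, and the libraries of 67.8% of all tested sites did not overlap either.

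Among the other sites with the greatest losses in CPM were regulators of adhesion and transcription. Within NEDD9, a scaffold of focal adhesions, a site (chromosome 6, 11344150 to 11344747) had 145 and 156 CPM at 72 h, against 311 and 340 CPM in control (log2 -1.11). The BHLHE40 promoter, of a circadian and TGF-beta responsive repressor gene, had 124 and 114 CPM at 72 h, against 265 and 284 CPM in control (log2 -1.20). These 2 calls are lost with the assumed coefficient of 0.2 (edgeR adjusted p = 0.0869 and 0.0582). A pair of sites within RIPOR3 fell with log2 -1.43 and -1.58, a site 9743 bp from MIR23A, a microRNA gene, with log2 -1.61, one within SLC37A2 with log2 -1.28 and one within DNAJB12, a co-chaperone gene, with log2 -1.36. Among the 10 largest losses in fold, PECAM1, an endothelial adhesion gene, stood at log2 -3.52 within the gene, with 4.23 and 4.53 CPM at 72 h, against 48.2 and 52.6 CPM in control. The others were sites near MIR8079 (log2 -3.54), LYPLAL1 (log2 -3.27) and DYM (log2 -2.99), at 87446, 350278 and 38972 bp, and sites within TTI1 (log2 -3.23) and AAGAB (log2 -3.01). In AAGAB, 1 of the 72 h libraries had 0.847 CPM and the other 6.34 CPM, against 24.6 and 32.3 CPM in control.

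The greatest gains in CPM were in repeated DNA near chromosome ends, where reads can come from near-identical copies and the place of the signal is uncertain. At DUX4, the gene of the D4Z4 repeats of chromosome 4 (190177608 to 190180006, 24666 bp from the chromosome end), the levels were 3968 and 3684 CPM at 72 h, against 623 and 615 CPM in control (log2 2.63, 2.58 to 2.68; edgeR adjusted p = 9.76e-190). A site 99155 bp from the end of chromosome 18 (107700 to 109403, 2853 bp from MIR8078) had 4312 and 4168 CPM at 72 h, against 714 and 776 CPM in control (log2 2.51). Both were the highest sites of the 72 h libraries. A second site near MIR8078 (110245 to 110850) rose with log2 2.56. On chromosome 10, 90254 bp from the end, a site linked to FRG2B at 61287 bp had 1437 and 1289 CPM at 72 h, against 221 and 240 CPM in control (log2 2.57), though the 72 h peak list held no peak there. Within TTC34 on chromosome 1 (2653627 to 2655811), the levels were 818 and 842 CPM at 72 h, against 141 and 148 CPM in control (log2 2.53). These 5 sites also stood above control with background scaling, at log2 1.01 to 1.12.

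Farther from chromosome ends, RCC1 stood out among the gains in CPM: a site within this gene, which encodes the exchange factor of the GTPase Ran on chromatin (chromosome 1, 28509872 to 28511142), had 582 and 564 CPM at 72 h, against 96.3 and 93.9 CPM in control (log2 2.59; with background scaling 1.09). Whether the RCC1 site lies in repeated DNA was not tested. The rest of the 10 greatest gains in CPM were a site in repeats near the centromere of chromosome 4, linked to CWH43 at 86717 bp (log2 1.11; with background scaling -0.40), a U3 small nucleolar RNA gene, SNORD3B-2 (log2 1.12; -0.39), and the U1 small nuclear RNA genes RNU1-1 (log2 1.22; -0.29) and RNU1-2 (log2 1.19; -0.32). All 4 thus lay below control with background scaling, and U1, U3 and centromeric repeats all exist in near-identical copies.

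**Figure D2:**
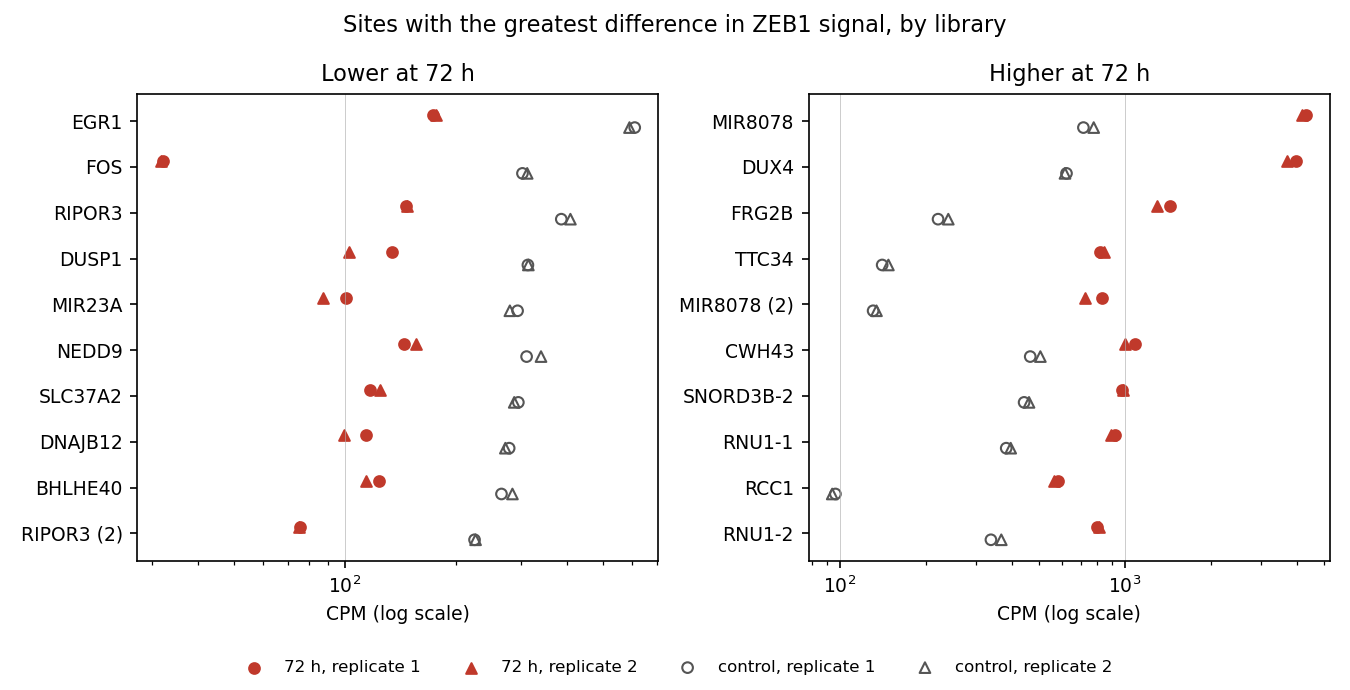
CPM (log scale) of each library at the 10 called sites per direction with the greatest difference in pooled CPM, filled red symbols for 72 h and open grey symbols for control, circles for replicate 1 and triangles for replicate 2. Sites bear the name of the RNA gene they overlap or of the linked gene. The 20 sites were chosen so that the libraries of the conditions do not overlap, and FOS has the widest gap among the lower ones.

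The plot of single libraries shows replicates of a condition beside the gap between the conditions, a gap that the choice of these sites required. In fold, the greatest gains were at sites that control cells barely had. FGD6 had 38.1 and 40.7 CPM at 72 h, against 1.42 and 1.61 CPM in control, within the gene (log2 4.71, 3.76 to 5.81; edgeR adjusted p = 9.55e-33). Sites within ZNF566 (log2 4.12), ZNF582 (log2 3.95) and ZNF283 (log2 3.54), zinc finger genes of chromosome 19, rose, as did one within LOC122539214 on the same chromosome, with 107 and 132 CPM at 72 h, against 8.78 and 5.81 CPM in control (log2 4.01). A site within CENPE, a kinetochore motor gene, had 33.0 and 34.4 CPM at 72 h, against 2.83 and 1.29 CPM in control (log2 3.996). The others were near CXCL17 (log2 4.51), GPX5 (log2 3.96) and FGF2 (log2 3.46; 40151 bp away) and within AFAP1 (log2 3.53). None of these 10 sites held a control peak, so each entered the consensus through a list of treated cells. That entry favours a high treated and a low control level, and the adjusted p does not allow for it. With background scaling these sites stood at log2 1.95 to 3.20.

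Some genes had many called sites around them, and the 8 per direction with most were chosen for that number. Over all tested sites, 8.59% were lower and 12.3% higher. Sites linked to 1 gene are neighbours, such as the 37 of TTC34 between 2652180 and 2777195 of chromosome 1. NEDD9 had 14 of 23 linked sites lower and DUSP1 10 of 17. For CPEB4, a translation regulator, ERRFI1, an inhibitor of EGFR signalling, MARCHF10, a ubiquitin ligase, and PTPN1, a tyrosine phosphatase, 9 sites each were lower, of 19, 22, 16 and 24. BMPER, a BMP-binding protein gene, had 8 of 18 and FTH1, the ferritin heavy chain gene, 8 of 14. Over the 23 sites of NEDD9 the summed signal was 654 CPM at 72 h, against 1562 CPM in control. Over the 17 of DUSP1 it was 708 CPM at 72 h, against 1474 CPM in control. The genes with most higher sites were others: TTC34 with 37 of 37 sites (median log2 2.51), CWH43 with 31 of 41 (median log2 1.10; with background scaling -0.41), SPACA7 with 22 of 23 (median log2 1.57; 0.07), LOC124902048 with 16 of 17 and LOC101929601 with 12 of 12, which neighbour each other on chromosome 8, and FRG2B with 8 of 8. RPH3AL, near the end of chromosome 17, had 8 of 9 higher and ABHD5, a lipase co-activator gene, 8 of 13 (median log2 1.04; with background scaling -0.47).

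Sites over promoters were called less often than other sites in both directions. A site overlapping a promoter window was called lower in 1.67% of 7862 cases and higher in 5.00%, against 9.96% and 13.8% of 36516 sites elsewhere (chromosome 8 left out). Within each quintile of control level among sites with a control peak, 0.680% to 2.47% of promoter sites were called lower, against 3.45% to 14.6% of sites elsewhere. Higher calls were made at 1.05% to 11.7% of promoter sites, against 3.53% to 14.7% elsewhere. Only in the second lowest quintile were promoter sites higher more often (6.74% against 6.09%). Promoter sites also kept a listed peak more often, 58.2% of 7589 against 34.3% of 31391 sites elsewhere. In the highest quintile of control level, 95.2% of promoter sites held a 72 h peak, against 84.9% of sites elsewhere. Promoter sites were wider, with a median of 451 bp against 248 bp, and the part of width in these shares was not tested. No test was made on the shares themselves.

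**Figure D3:**
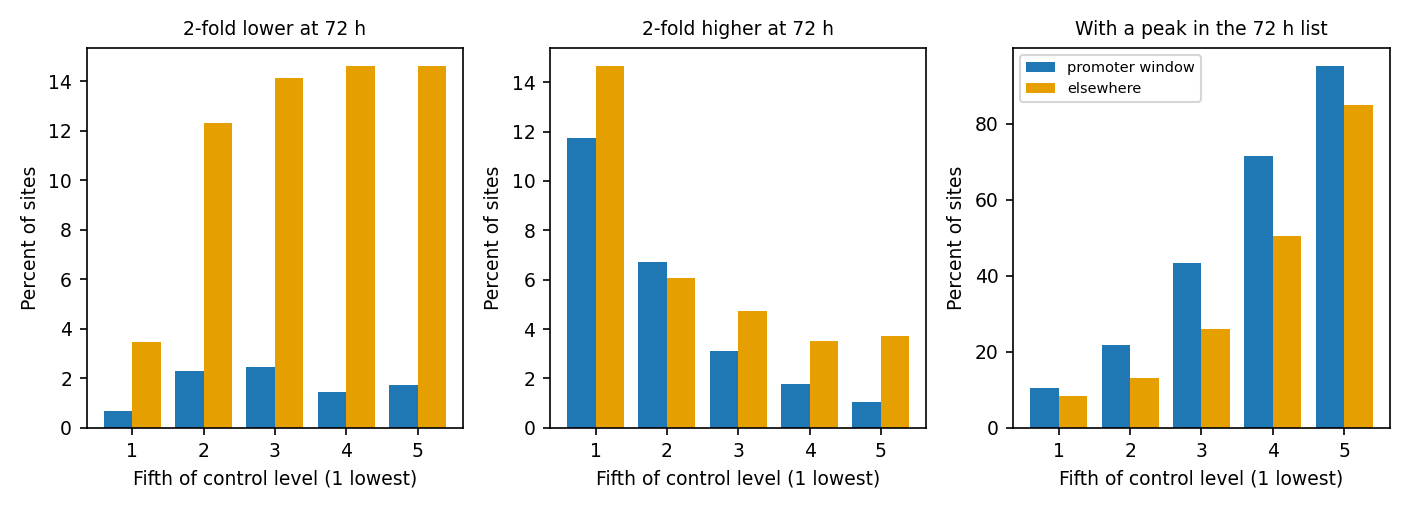
Percent of sites called at least 2-fold lower, at least 2-fold higher, or holding a peak in the 72 h list (vertical, percent of sites), by quintile of control level, for sites that overlap a promoter window (blue) or not (orange), among sites with a control peak outside chromosome 8. In every quintile the blue bar for lower sites is far below the orange one, at most 2.47%, and the blue bar for a 72 h peak is the taller.

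Promoters under sites that gained held the E-box more often than those under sites that lost. Among promoter windows of protein-coding genes, CACCTG or CAGGTG (the same site on the other strand) was found in 32.5% of the 489 windows over a higher site, 12.99% of the 154 over a lower site, 18.4% of the 9376 over a tested site that was not called and 19.9% of all 22198 windows. The share climbed in steps with the change of the site: 12.7% of 166 windows over sites below log2 -1, 14.4%, 16.2%, 19.3% and 24.5% in the steps between, and 31.1% of 528 windows above log2 1. Among sites with a control peak the ends were 12.7% and 33.0%. By tertile of control level, the windows above log2 1 held it in 29.4% of 432 cases in the lowest, 43.3% of 60 in the middle and 30.6% of 36 in the highest tertile, against 12.1%, 13.5% and 12.5% of the windows below log2 -1. The core CACCT or AGGTG, which the E-box contains, was found in 56.4% of windows over higher sites, 53.2% over lower and 51.3% of all. The AP-1 letters TGACTCA or TGAGTCA were found in 7.77% of windows over higher sites, 7.14% over lower and 4.01% of all. A window counted as over a site from 1 shared base on, so a counted E-box need not lie under the site. Windows of alternative starts can share letters and sites, and no test was made on these shares.

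**Figure D4:**
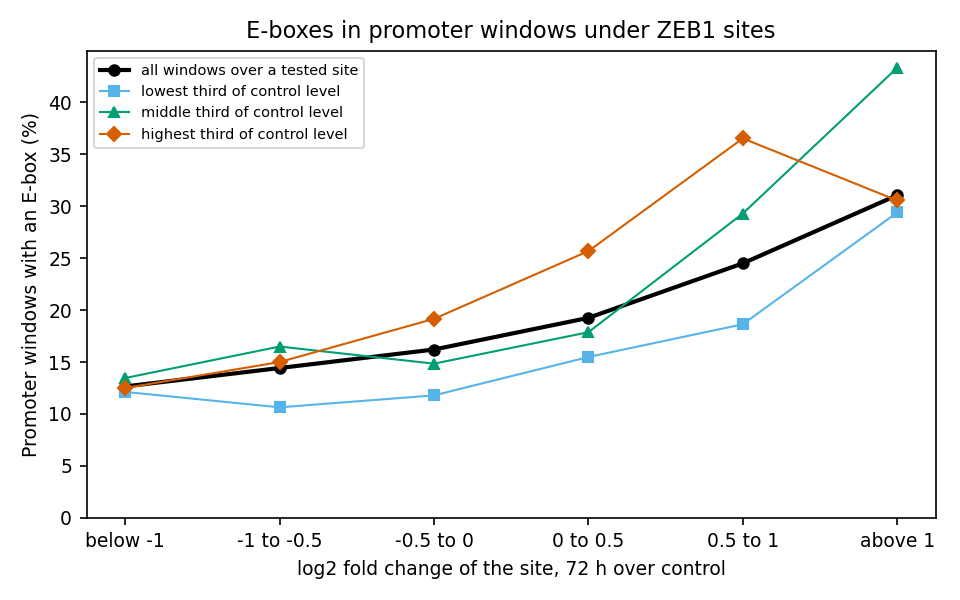
Percent of promoter windows that hold the E-box of ZEB1 (vertical), by the log2 fold change of the ZEB1 site over them, 72 h over control (horizontal), for all windows over a tested site (black) and for tertiles of control level (colours). The black line climbs at each step, 12.7% to 31.1%, and the highest tertile dips at the last step, which holds 36 windows.

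Of the called promoter windows of list genes, 4 of 16 over higher sites held an E-box, and 0 of 14 over lower sites did, against 19.9% of all windows, counts too small to compare. The 4 belong to 3 genes, PATJ, DSG2 and OCLN, and the 2 windows of OCLN overlap at 1 site. The OCLN window not printed above shares 65 bases with that site, and its 1 E-box lies outside the site. OCLN, the gene of the tight junction protein occludin, had 32.2 and 27.2 CPM at 72 h, against 11.9 and 8.39 CPM in control (log2 1.54, 1.03 to 2.04; with background scaling 0.03). PATJ, a polarity scaffold of tight junctions, had 27.1 and 32.6 CPM at 72 h, against 10.5 and 13.6 CPM in control (log2 1.32; with background scaling -0.18). DSG2, a desmosomal cadherin gene, had 22.9 and 20.8 CPM at 72 h, against 6.80 and 8.71 CPM in control (log2 1.51; with background scaling 0.00). At these promoters, chosen after their values were seen, the libraries of the conditions were apart, which the call largely fixes. Relative to the background floor the signal stood near its control level where most sites lay below theirs.

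The epithelial junction and polarity list as a whole had called sites in both directions. Of its 164 linked sites, 21 were lower (12.8%, against 8.59% of all tested sites) and 32 higher (19.5%, against 12.3%), with a median log2 of 0.10, which is -1.41 with background scaling. Within 5 kb of a gene, 4 of 58 were lower (6.90%) and 13 higher (22.4%), against 4.43% and 10.5% of all 17194 sites linked within 5 kb. The higher share was not particular to this list: of 40 housekeeping sites at that distance, 10 were higher (25.0%) and 1 lower (2.50%). With DESeq2, 8 sites of the list were lower and 22 higher, and with background scaling 112 and 4. TJP1, a tight junction scaffold gene, had 6 of 11 higher and 2 lower, led by a site within the gene with 53.3 and 67.9 CPM at 72 h, against 14.7 and 13.6 CPM in control (log2 2.09). CDH1, the gene of E-cadherin and a classic ZEB1 target, had weak sites. One that ends at the first base of the gene (chromosome 16, 68737140 to 68737292) had 8.47 and 9.96 CPM at 72 h, against 1.13 and 0.645 CPM in control (log2 3.34, 1.99 to 4.94; edgeR adjusted p = 2.65e-07), and stayed above control with background scaling (log2 1.84). A further CDH1 site rose and 1 fell. CTNNA1, which links cadherins to actin, ran the other way with 7 of 12 sites lower, all of them 4582 to 88623 bp outside the gene as the RefSeq table bounds it. The lower site with the smallest p lay within KRT8 and was nearest to KRT18, both keratin genes of simple epithelia (log2 -1.06), and it missed the 2-fold limit without 72 h replicate 1 (log2 -0.91).

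Epithelial transcription factors and microRNAs had 15 lower (15.5%, against 8.59% of all tested sites) and 14 higher (14.4%, against 12.3%) of 97 sites (median log2 -0.14), and without 72 h replicate 1 the higher ones were 9. EHF, an epithelial ETS factor gene, had 6 of 13 lower. Its strongest lower site had 36.4 and 29.9 CPM at 72 h, against 73.7 and 66.8 CPM in control (log2 -1.08; -0.95 without 72 h replicate 2). A site 6003 bp from ELF3, another ETS factor gene, rose with log2 2.49 (with background scaling 0.99). The EMT transcription factors and ZEB1 partners had 11 lower and 11 higher of 115 sites (9.57% each, against 8.59% and 12.3%; median log2 -0.14), or 7 and 7 without 72 h replicate 2. The site that led the losses was linked to SNAI1, an EMT repressor gene, at 41021 bp, with 12.7 and 23.5 CPM at 72 h, against 75.4 and 81.3 CPM in control (log2 -2.12), and the one that led the gains to SOX9 at 43267 bp (log2 2.14). The promoter of ZEB1 itself had 142 and 133 CPM at 72 h, against 74.2 and 69.4 CPM in control. Its log2 of 0.94 (0.73 to 1.15; edgeR adjusted p = 2.41e-16) missed the 2-fold limit and was -0.57 with background scaling.

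AP-1 and immediate early genes had the highest share of lower sites of all lists with 50 or more sites. Of 227 sites linked to 28 genes, 48 were lower (21.1%, against 8.59% of all tested sites) and 12 higher (5.29%, against 12.3%), with a median log2 of -0.27 against 0.00 over all tested sites. Within 5 kb, 25 of 90 were lower (27.8%) and 1 higher (1.11%), against 4.43% and 10.5% of all sites linked within 5 kb. With DESeq2, 35 sites of the list were lower and 10 higher, and with background scaling 198 and 1. Sites of the list were stronger in control, with a median of 32.1 CPM against 12.4 CPM over all tested sites. In the highest quintile of control level among control peaks, 1.71% of promoter sites and 14.6% of sites elsewhere were lower. There 1.05% and 3.71% were higher. The part of control level in the shares of the list was not tested. FOS had 7 of 11 sites lower, ATF3, a stress-induced AP-1 partner, 6 of 10, NR4A1, an orphan nuclear receptor gene, 3 of 8, and EGR1 and JUNB 2 of 3 each. Other members did not fall: FOSL1, also an AP-1 subunit gene, had 0 of 6 lower and 1 higher, and IER5 0 of 12 lower and 2 higher. JUND, EGR2, EGR3, NR4A3 and KLF4 were among the genes with no called site. KLF6, a zinc finger gene, had 3 lower and 4 higher of 26, and the site that led the gains, 24866 bp away, had 413 and 423 CPM at 72 h, against 199 and 212 CPM in control (log2 1.03; with background scaling -0.48; 0.97 without control replicate 1).

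Targets of YAP and TEAD, the effectors of Hippo signalling, had 39 lower and 11 higher of 216 sites (18.1% and 5.09%, against 8.59% and 12.3%; median log2 -0.15). With DESeq2, 17 were lower and 8 higher, and with background scaling 170 and 1. Within 5 kb, 10 of 61 were lower (16.4%) and 6 higher (9.84%), against 4.43% and 10.5% of all sites at that distance. CCN2, a matrix growth factor gene, had all 3 of its sites lower. The strongest, 682 bp away, had 10.2 and 13.6 CPM at 72 h, against 77.6 and 75.8 CPM in control (log2 -2.70, -3.32 to -2.14). TGFB2 had 6 of 13 lower, ASAP1 7 of 23 and TEAD1 4 of 8. A site 3417 bp from AMOTL2, an inhibitor of YAP, rose with 22.9 and 29.9 CPM at 72 h, against 3.12 and 3.55 CPM in control (log2 2.98). The TGF-beta pathway, a main inducer of EMT, had 29 lower and 10 higher of 162 sites (17.9% and 6.17%; median log2 -0.27), which were 18 and 8 with DESeq2 and 137 and 4 with background scaling. BHLHE40 had 6 of 12 lower. Within SMAD3, a signal transducer of the pathway, a site rose with 61.0 and 68.8 CPM at 72 h, against 9.92 and 11.3 CPM in control (log2 2.62). Mesenchymal and matrix genes had 30 lower and 9 higher of 160 (18.8% and 5.63%; median log2 -0.37), which were 11 and 4 with DESeq2 and 138 and 0 with background scaling. Within 5 kb, 4 of 41 were lower and 4 higher (9.76% each, against 4.43% and 10.5% of all sites at that distance). COL1A2 had 3 of 3 sites lower and MMP2 2 of 2, and ITGB3, TPM1 and COL6A3 4 each, of 7, 6 and 14. A site within ITGB3 stood at log2 -1.09, and one 880 bp from COL6A2 at log2 1.93 (with background scaling 0.42).

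**Figure D5:**
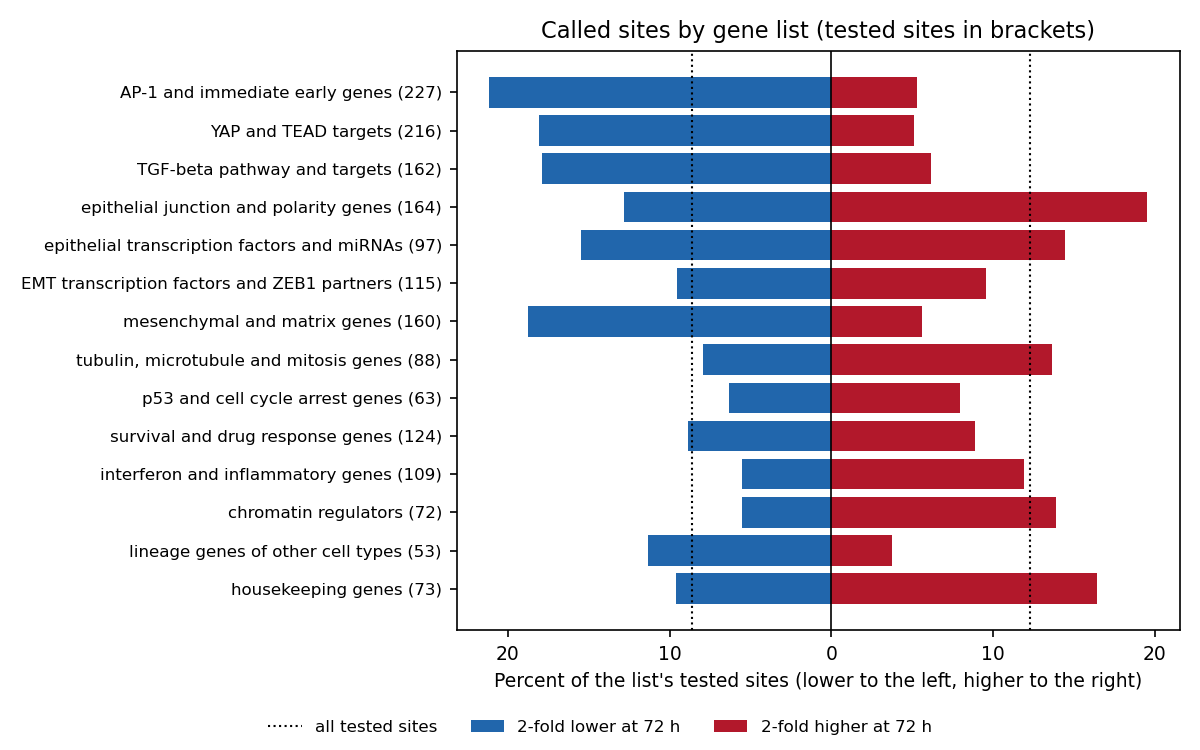
Percent of each list's tested sites called at least 2-fold lower (blue, to the left) or higher (red, to the right) at 72 h, for lists with 50 or more sites, whose number stands in brackets. Dotted lines mark the shares over all tested sites, 8.59% and 12.3%; the AP-1, YAP, TGF-beta and mesenchymal lists reach 17.9% to 21.1% lower and 5.09% to 6.17% higher, and the junction list 19.5% higher.

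Lists closer to the action of the drug had 6.35% to 8.87% of their sites lower, against 8.59% of all tested sites. Their higher shares were 7.94% to 13.6%, against 12.3% of all tested sites. Tubulin, microtubule and mitosis genes had 7 lower and 12 higher of 88 sites (7.95% and 13.6%; median log2 -0.03), and without 72 h replicate 2 the lower ones were 4. Besides the CENPE site above, TUBA1C, an alpha-tubulin gene, had 3 of 5 higher, the strongest 357 bp from an end of the gene with 46.6 and 52.5 CPM at 72 h, against 13.03 and 9.68 CPM in control (log2 2.11). A site within MAPRE3, of a microtubule plus-end protein, fell (log2 -1.81), as did 3 of 7 at MAP4. The p53 and arrest genes had 4 lower and 5 higher of 63 (6.35% and 7.94%), with PHLDA3 at log2 -1.74 and CCNE1, the cyclin E gene, at log2 2.399 (with background scaling 0.89). Survival and drug response genes had 11 and 11 of 124 (8.87% each). Their leading sites were within CFLAR, a caspase inhibitor gene (log2 -1.25), and 58165 bp from EGFR, the epidermal growth factor receptor gene (log2 2.39; with background scaling 0.88), which had 5 of 21 sites higher.

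Interferon and inflammatory genes had 6 lower and 13 higher of 109 sites (5.50% and 11.9%, against 8.59% and 12.3% of all tested sites). A site 812 bp from IFIT3, an interferon-induced gene, had 70.3 and 65.2 CPM at 72 h, against 10.5 and 8.39 CPM in control (log2 2.84), and one linked to IRF1 fell (log2 -1.31). CXCL8, the interleukin 8 gene, had 2 of 8 lower, and TNFAIP3, an inhibitor of NF-kB signalling, 3 of 9 higher and 1 lower. Of 72 sites linked to chromatin regulators, 4 were lower (5.56%) and 10 higher (13.9%), or 6 higher without 72 h replicate 2, led by KAT2B (log2 -1.18) and HDAC9 (log2 4.34, from 28 counts at 72 h against 4 in control). Housekeeping genes had 7 lower and 12 higher of 73 (9.59% and 16.4%), led by TFRC (log2 -2.26) and EEF1A1, the elongation factor gene, with 111 and 101 CPM at 72 h, against 29.5 and 35.8 CPM in control (log2 1.71; with background scaling 0.20). Lineage genes of other cell types had 6 lower and 2 higher of 53 (11.3% and 3.77%), led by the PECAM1 site above and MBP (log2 1.85; with background scaling 0.35). Among receptor genes, 6 sites were linked to ESR2 and 1 was higher, from 14 counts at 72 h against 10 in control, a call lost with DESeq2 (adjusted p = 0.0851), without 72 h replicate 1 (edgeR adjusted p = 0.0822) and without control replicate 1 (edgeR adjusted p = 0.186).

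Sites over tRNA genes, which RNA polymerase III transcribes, were called higher more often than tested sites as a whole, and sites over microRNA genes were not. This comparison was chosen after values were seen. Of 135 sites that overlap a tRNA gene, 59 were higher (43.7%, against 12.3% of all tested sites) and 0 lower, with a median log2 of 0.84, which is -0.67 with background scaling. Among the 116 with a control peak, 45 were higher, against 6.19% of all sites with a control peak. The strongest overlaps TRR-CCT1-1 and TRR-CCT2-1, arginine tRNA genes of chromosome 17 (75033822 to 75035012), with 268 and 259 CPM at 72 h, against 42.8 and 43.9 CPM in control (log2 2.61, 2.402 to 2.82; with background scaling 1.10). TRR-TCT3-1 on chromosome 9 had 246 and 263 CPM at 72 h, against 57.8 and 51.6 CPM in control (log2 2.21). Of 46 sites over small nuclear RNA genes 15 were higher and 0 lower, and of 14 over small nucleolar RNA genes 5 were higher and 1 lower (median log2 0.61 and 0.45; with background scaling -0.90 and -1.06). Of 91 over microRNA genes, 8 were higher (8.79%) and 5 lower (5.49%). Ribosomal RNA sites, the remainder of the 5 highest levels at 72 h, moved little: at chromosome 21, 8217509 to 8219055, the levels were 1593 and 1543 CPM at 72 h, against 1375 and 1492 CPM in control (log2 0.13; with background scaling -1.37). Those at 8392674 to 8394531 and 8209654 to 8211490 stood at log2 -0.41 each. Reads of tRNA, small RNA and ribosomal RNA genes can be split between near-identical copies.

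Gains were more frequent toward chromosome ends, with no test made. Within 5 Mb of an end, 24.3% of 5835 sites were higher and 5.28% lower, against 10.6% and 9.07% of 40601 sites farther in. The share higher was 31.4% within 1 Mb, 28.1% between 1 and 2 Mb, 28.6% between 2 and 3 Mb, 14.5% between 3 and 5 Mb and 11.9% between 5 and 10 Mb. Among sites with a control peak, 11.05% within 5 Mb were higher, against 5.56% farther in. The median log2 within 1 Mb was 0.46, which is -1.05 with background scaling.

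Values at the shorter exposures, which share the control, stand beside those at 72 h as follows. The strongest FOS site had 307 CPM in control, 12.4 CPM at 24 h, 66.1 CPM at 48 h and 31.9 CPM at 72 h. EGR1 had 601 CPM in control, 80.3 CPM at 24 h, 159 CPM at 48 h and 175 CPM at 72 h, while DUX4 had 619 CPM in control, 1264 CPM at 24 h, 3568 CPM at 48 h and 3831 CPM at 72 h. The RCC1 site had 95.2 CPM in control, 155 CPM at 24 h, 212 CPM at 48 h and 574 CPM at 72 h. FOS and EGR1 were thus lowest at 24 h among the exposures, and DUX4 and RCC1 highest at 72 h. Not all of the greatest gains in CPM were highest at 72 h. The TTC34 site had 144 CPM in control, 272 CPM at 24 h, 1565 CPM at 48 h and 830 CPM at 72 h. The CWH43 site had 483 CPM in control, 1212 CPM at 24 h, 859 CPM at 48 h and 1040 CPM at 72 h. The rest of the greatest gains in CPM, at MIR8078, FRG2B, SNORD3B-2, RNU1-1 and RNU1-2, were highest at 72 h.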

How the data were processed

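ZEB1 CUT&RUN counts of 2 libraries at 72 h and 2 control libraries were compared; the 2 IgG libraries were not used here. The authors' deposited table gives raw counts per consensus site and library, and 0 columns of per-sample values were left unused. The authors' deposited peak lists give, in the layout of MACS2, a score, a fold enrichment (a ratio) and -log10 p and q values; whether replicates were merged is not stated, and peak names carry replicate 1. Per the submitters' processing notes, the tools were MACS2 2.1.1, deepTools, bedtools 2.30.0, Bowtie2 2.2.6, featureCounts, Picard, cutadapt 2.4 and bcl2fastq 2.20.0.422, with hg38 and with no role or order given. Coordinates are hg38, counted from 1.

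All 8 ZEB1 libraries were fitted with edgeR 4.0.16 (R 4.3.3): TMM factors, filterByExpr by condition, robust quasi-likelihood, condition as the only term, contrast 72 h minus control, Benjamini-Hochberg adjustment at 0.05. A called site also changed at least 2-fold in pooled counts, with 3 counts in place of 0. The common dispersion was 9.77e-05. The test was tried first on simulated data with counting error only and no variation between cultures. Of sites changed 1.5-fold, 9 of 67 passed the adjusted p. Calls were made at 29 of 67 sites changed 2-fold and 51 of 66 changed 4-fold. Among unchanged sites, 6 passed the adjusted p. Replicate numbers do not pair the libraries: deviations of same-numbered libraries from their group means had a correlation of 0.00381. DESeq2 1.42.0 was an alternative. Peak overlaps used bedtools 2.31.1, any shared base counting.

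Each site took the name of the nearest gene end, protein-coding or microRNA, of the RefSeq table (GRCh38.p14); 41051 sites (88.4%) had one of 14693 genes within 100 kb. A named gene farther away is only the nearest one. All 397 genes of the 15 lists were matched by symbol. The lists, the naming rule and the alternatives were chosen with earlier results of these data known. The rule names, in each direction, the 10 largest folds among called sites above median abundance, the 10 with the largest CPM difference, the called site with the smallest p of each list, the 8 protein-coding genes with most called sites, the 5 highest sites at 72 h, and up to 4 promoters. Sites with the largest folds or CPM differences also had to have both 72 h libraries on the same side of both control libraries. Other list genes, the RNA gene classes and the promoters of OCLN, PATJ and DSG2 were chosen after their values were seen. Some results of list genes are not reported here.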

Additional observations from a re-analysis of the deposited data

How the results depend on the processing

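The counts of 3989 lower and 5706 higher sites moved by over 1.5 times with scaling to the background floor (34103 lower, 757 higher), with DESeq2 (1857 and 3801) and with pooled pairs and the assumed coefficient of 0.2 (936 and 2440). Among sites with a control peak, an alternative chosen after seeing the data, 3977 were lower and 2522 higher. With library totals, TMM factors of the weakest sites, no filter, a minimum of 50 counts or the 4 libraries alone, the lower sites numbered 3325 to 4651 and the higher ones 3831 to 6212. Leaving out 1 library gave 3287 to 3871 lower and 4839 to 5378 higher. With the replicate number as a block, which does not pair these libraries, the counts were 3985 and 5677, and none of the 67 named values changed its side. The shares of overlapping peaks, 92.7% of the 72 h and 34.7% of the control list, were 91.1% and 22.6% with at least 50% of a peak covered, 94.7% and 29.3% at a -log10 q of at least 5, and 68.5% and 66.0% at equal list lengths. Background scaling reversed the log2 fold change of 6 named sites, to -0.40 at CWH43, -0.39 at SNORD3B-2 (linked to GRAP), -0.29 at RNU1-1, -0.32 at RNU1-2, -0.48 at KLF6 and -1.37 at the ribosomal site near MIR3648-1, through its constant shift. Of the 30 counts of called sites by list and direction, DESeq2 moved 16 by over 1.5 times (beside the lists given with their counts, to 7 higher epithelial factor sites, 4 lower EMT factor sites, 1 lower and 6 higher tubulin sites, 5 and 7 survival sites, 8 higher interferon and 5 higher chromatin sites, and 3 lower sites each of lineage and housekeeping genes), background scaling all 30, the coefficient of 0.2 28, and leaving out 1 library 1 to 5. Background scaling ended the call of 9 more named sites, and the assumed coefficient of 0.2 that of 14. Only differences well above counting error can be seen at the depth of the 72 h libraries, and no value has a check between cultures.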

Other observations

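Zinc finger genes of the ZNF family, many of which sit in clusters on chromosome 19, were looked at after sites within ZNF566, ZNF582 and ZNF283 appeared among the largest gains. Of 350 tested sites linked to ZNF genes on chromosome 19, 50 were at least 2-fold higher at 72 h (14.3%) and 4 lower (1.14%). The other 1977 sites of the chromosome held 222 higher (11.2%) and 151 lower (7.64%). Sites lying within their linked ZNF gene were higher in 28 of 88 cases (31.8%, against 14.5% of 774 other sites of chromosome 19 within their linked gene) and lower in 1, with a median log2 of 0.43, which is -1.08 with background scaling, and 20 of the 88 held no control peak. Among the 313 sites of these genes with a control peak, 19 were higher (6.07%) and 4 lower, against 4.89% higher among 1779 other sites of the chromosome with a control peak and 6.19% over all chromosomes, so that the higher share is near the background there. Reads from ZNF genes can be split between similar members of a cluster.

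Chromosomes differed in the share of higher sites. Chromosome 4 had 16.7% of 1944 sites higher and 7.05% lower, with a median log2 of 0.16, and chromosome 22 had 8.78% of 957 higher and 9.404% lower, with a median log2 of -0.19.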
